A study of Mus musculus with 12 samples.

Results

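The cytosolic ribosomal protein genes were examined in RNA sequencing of the cortex of 12 mice. Members were the rows of the deposited count table whose symbol follows the Rpl or Rps naming of the cytosolic ribosome, together with Rplp0, Rplp1, Rplp2 and Rpsa, leaving out rows named as pseudogenes and the Rps6k kinases, which gave 90 of 33024 rows. They comprised 43 genes of the large subunit, 31 of the small subunit, 3 of the P stalk and 13 paralogs or copies. The rule used symbols only and no measured value, though the family was taken up with earlier results of these data known. All mice were wildtype C57BL/6. The 5 EtOH mice could choose between a bottle of water and a bottle of 20% (v/v) ethanol during 12 h of each of 35 drinking sessions in the dark from an age of 30 days, and were then kept without ethanol for 14 days, whereas the 7 Control mice, labelled Vehicle, had water alone. Tissue was taken only after a set of behavioural tests that followed the 14 days. Frozen tissue labelled as brain cortex gave 1 library per mouse, with no genetic change and no cell sorting, and each count is therefore a sum over all cells of the dissected piece. How much ethanol each of these mice drank was not analysed here.

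A cytosolic ribosome holds 1 copy of nearly every one of its proteins, with the acidic P proteins as an exception, so the genes are usually expressed in a coordinated way. Their mRNAs are short, abundant and in many cases start with an unbroken stretch of pyrimidines, the terminal oligopyrimidine or TOP motif, through which mTORC1 controls their translation. Several members also act outside the ribosome. RPL5 and RPL11 bind MDM2 and thereby stabilise p53 when ribosome assembly is disturbed, phosphorylated RPS6 is the customary readout of mTORC1 activity in neurons, RPSA doubles as a laminin receptor, and RPS27A is made as a fusion with ubiquitin. A few members have paralogs with restricted expression, among them RPL3L of heart and skeletal muscle, RPL10L and RPL39L of testis, and RPL22L1, which is repressed by RPL22.

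The TOP letters are shown here for Rps6, Rpsa and some members of the pairs of paralogs described further down. Rps4l, Rpl3 and Rpl7 were not matched. No window is printed for Rpl10, Rpl36a and Rpl39, which were not in the set searched for printing. RefSeq starts of the build GRCm38.p6 were used, a build earlier than the GRCm39 of the counts, and 65 members were found there with 77 starts. Each window, at the first listed start of the gene, holds 15 bases before and 15 bases from the annotated start, 5′ to 3′ on the gene's strand, with a run of at least 7 letters that begins with C and continues in C or T in capitals.
Rps6, chr4:86857353-86857382, minus strand: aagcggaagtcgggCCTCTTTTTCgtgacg
Rpsa, chr9:120127751-120127780, plus strand: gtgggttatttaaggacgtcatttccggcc
Rps27, chr3:90213634-90213663, minus strand: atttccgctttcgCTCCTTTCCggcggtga
Rps27l, chr9:66946071-66946100, plus strand: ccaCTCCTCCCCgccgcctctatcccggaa
Rpl22, chr4:152325711-152325740, plus strand: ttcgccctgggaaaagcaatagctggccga
Rpl22l1, chr3:28805493-28805522, plus strand: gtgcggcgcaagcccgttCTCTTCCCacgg
Rpl7l1, chr17:46782642-46782671, minus strand: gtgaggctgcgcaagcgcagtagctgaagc
Rpl3l, chr17:24727811-24727840, plus strand: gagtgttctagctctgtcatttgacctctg
Rps4x, chrX:102189377-102189406, minus strand: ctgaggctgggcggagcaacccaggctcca
Rps6 carried the longest run of those printed, 10 letters, followed by Rps27 and Rps27l with 9 each. Searched on the gene's strand only, such a run of at least 7 letters was present at 33 of 65 members (50.8%) and at 16.4% of all 27025 symbols of the same table. A match is a description of the letters and not proof of a TOP start, because annotated starts may lie a few bases from the used start.

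Libraries held 31768076 to 42183029 counts each. The members together took 0.755% to 1.02% of them. Control 5 and EtOH 1 were the deepest libraries, at 40690223 and 42183029 counts. All 12 marker lists used to check the dissection had reads. CPM are counts per 1000000 counts of the library, with library sizes scaled by TMM normalization. Cortical markers were present in both groups at a summed level of 2628 to 3176 CPM in Control and 2548 to 3113 CPM in EtOH. However, 1 of the 11 was called higher and 3 lower, with log2 fold changes from −1.21 to 0.60. Thalamic markers summed to 123 to 143 CPM in Control and 125 to 141 CPM in EtOH, and 0 of 7 were called. Striatal markers summed to 1305 to 2854 CPM in Control and 396 to 447 CPM in EtOH, and all 15 were called lower. Hippocampal markers summed to 528 to 615 CPM in Control and 739 to 807 CPM in EtOH. Of these 15 genes 7 were called higher and 2 lower, with log2 fold changes from −0.65 to 4.97. Choroid plexus markers summed to 8.05 to 22.7 CPM in Control and 12.9 to 1011 CPM in EtOH, and were above all Control mice in EtOH 1 to 4. The striatal markers and the summed level of the hippocampal markers thus moved with the group. A different dissection and altered expression cannot be told apart, and the part of these markers in the results that follow was not tested.

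Members differed far more from each other than between groups. Per kilobase of canonical transcript, the mean level over all mice was highest for Rplp1 (578 CPM per kb), an acidic protein of the P stalk that recruits elongation factors. Rps15 (388 CPM per kb), at the head of the small subunit, and Rpl41 (335 CPM per kb), the smallest protein of the ribosome, came next. Lowest of the 86 members that passed the filter on low counts were Rpl3l (0.234 CPM per kb), Rps3a3 (0.449) and Rps3a2 (0.613), of which the last 2 are annotated as processed pseudogenes. Among the 75 core members above 10 CPM the Control level spanned 47.0-fold, from 12.98 CPM per kb for Rpl39 to 610 for Rplp1. Canonical transcripts of Rpl37 (6111 bases) and Rps15a (5182 bases) are far longer than the usual mRNA of these genes, so that their per-kb levels of 14.3 and 19.4 are low by construction. Rpl39 (1889 bases) also has a long canonical transcript, whereas the member next to it, at 13.4 CPM per kb in Control, has one of 1047 bases.

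**Figure D1:**
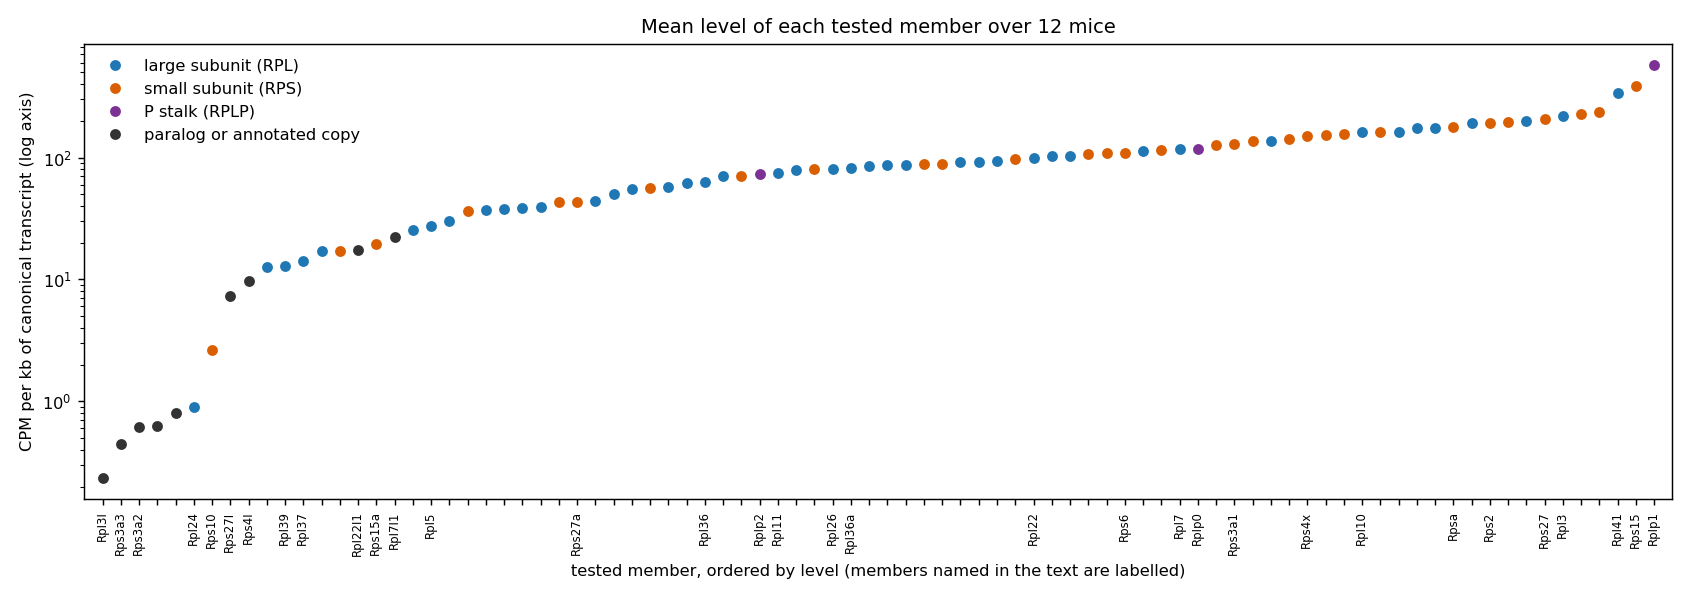
Mean level of the 86 tested members over 12 mice, in CPM per kb of canonical transcript on a log axis, ordered by level and coloured by subunit; members named in the text are labelled. Rplp1, Rps15 and Rpl41 stand at the upper end, and Rpl24 and Rps10 lie below all other subunit genes that are not paralogs or copies.

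Rpl24 and Rps10, which encode ordinary constituents of the large and the small subunit, were listed at few counts. Rpl24 had 8 to 30 counts per mouse and Rps10 60 to 101. Per kilobase, their Control levels were 0.835 and 2.42 CPM, against a median of 95.6 CPM over the 75 core members. Exons of both are shared on the same strand with other genes of the annotation (Gm28037 and Gm49804), which have no row in the table. Rpl36al, with 2 to 16 counts, shares exons with Gm49383 in the same way. Such an overlap on the same strand was found for 34 of the 90 members, abundant ones such as Rpl41 among them. Whether reads were left out for this overlap was not tested.

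The filter on low counts left 4 members untested. Rpl10l had 0 counts in all 12 mice, which allows up to 3 counts per library. That limit is 0.0711 to 0.0944 CPM by total counts, without TMM scaling. The pseudogene Rps12l1 was also listed at 0, but 100% of its 50-base windows occur elsewhere in the genome, so that its 0 sets no limit on its level. Rpl39l had 2 counts in Control 1 to 4 and in EtOH 5 and 0 in the others. Rpl36al is described above, and none of these members is compared between groups here.

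Ethanol exposure was next examined across the whole family. A gene was called where the adjusted p was under 0.05 and the log2 fold change exceeded 0.5 in either direction. With these thresholds 1 of the 86 tested members was called higher in EtOH, Rps4l, and 0 were called lower, by edgeR's quasi-likelihood test. Of all 16059 genes tested, 8.29% were called, 4.2% higher and 4.09% lower. Without the fold minimum, Rps4l was higher and Rpsa was lower, so that 2.33% of members passed against 23.7% of all genes. At an unadjusted p under 0.05, 4 members were higher and 6 lower, against 18.6% and 17.9% of all genes. Leaving out Control 6 or Control 5 gave 7 and 6 members lower without a fold minimum, and leaving out Control 1 or Control 7 gave 2, Rpsa included each time. Leaving out Control 3, EtOH 1, EtOH 3 or EtOH 5 gave 2 members higher. DESeq2 called the same single member, and passed 2 members higher and 3 lower without a fold minimum. For members above 10 CPM the median standard error on the log2 scale was 0.074, against 0.070 over the 10051 tested genes of that level, and the median SD within groups was 0.141 against 0.119.

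Most differences were small and negative, those of the paralogs and copies excepted. The median log2 fold change of the tested members was −0.07, with quartiles of −0.12 and −0.01, against 0.00 over all genes tested, and it moved to −0.04 without Control 2 and to −0.10 without Control 6. Negative values were found in 69 of 86 members (80.2%), compared with 49.99% of all genes. Large-subunit genes had a median of −0.07 (39 of 43 negative), small-subunit genes −0.08 (25 of 31 negative) and the P stalk −0.16 (3 of 3 negative). The 9 tested paralogs and copies had a median of 0.21, with 2 of 9 negative. In bulk tissue, fewer cells of a type and less RNA per cell cannot be told apart.

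**Figure D2:**
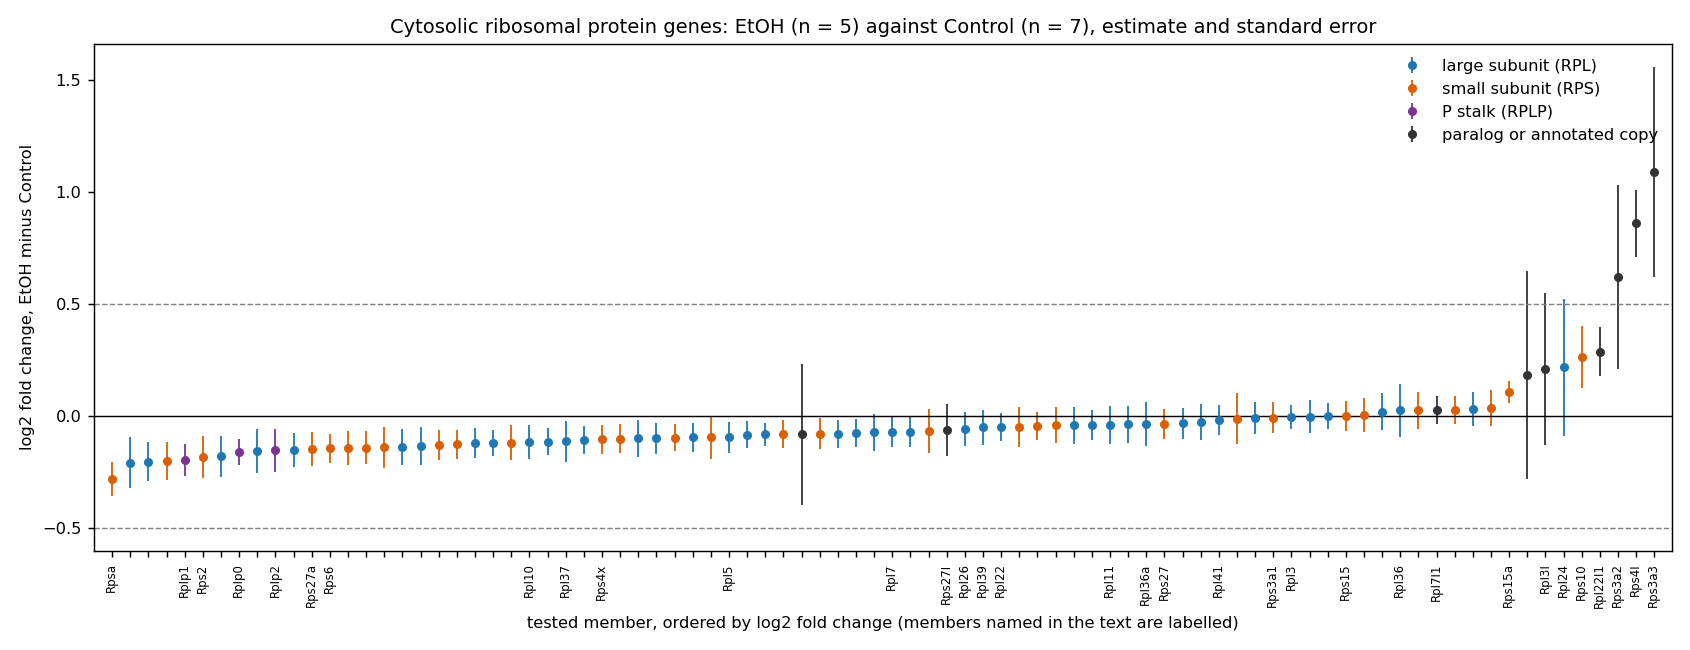
Log2 fold change of each tested member, EtOH minus Control, with its standard error from edgeR; dashed lines mark the fold minimum of 0.5 and members named in the text are labelled. Most members sit just under 0, Rpsa is lowest at −0.28, and Rps4l at 0.86 is the member past both the test and the fold minimum; Rps3a3 lies higher with a far wider error.

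Mice of the same group differed in the whole family by more than the groups did. The members' share of all counts was 0.884% ± 0.082 (SD, n = 7) in Control and 0.847% ± 0.045 (SD, n = 5) in EtOH. Control mice ran from 0.755% in Control 6 over a median of 0.871% to 1.02% in Control 2, and the EtOH mice had 0.901%, 0.885%, 0.797%, 0.838% and 0.813%. Every EtOH value thus lay inside the Control range, and the difference of −0.037 percentage points was smaller than the SD of either group. It was −0.0146 without Control 2, −0.025 without EtOH 3 and −0.059 without Control 6. Control 2 was the highest mouse for 57 of the 75 core members above 10 CPM. Control 6 was the lowest mouse for 40 of them. On the log2 scale, relative to each gene's mean over all mice, the median core member stood at 0.23 in Control 2 and at −0.18 in Control 6, and the EtOH medians of −0.14 to 0.07 fell between these.

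Other short genes were also lower in EtOH on balance, but did not follow the members in every mouse. Among 223 other protein-coding genes above 10 CPM with a canonical transcript of up to 1000 bases, 192 (86.1%) had a negative log2 fold change and the median was −0.13, against 67 of 75 (89.3%) and −0.08 for the core members. The 1230 genes above 1000 and up to 2000 bases had a median of −0.09. In the 4698 genes above 4000 bases the median was 0.06 and 35.1% were negative. Control 2 was the highest mouse in the short genes as well (0.21) and the lowest in the long genes (−0.095). Short genes were lowest in EtOH 3 (−0.12), not in Control 6 (−0.084). Their medians had the opposite sign to those of the core members in Control 5 (−0.040 against 0.020), Control 7 (0.034 against −0.013), EtOH 1 (−0.052 against 0.068) and EtOH 2 (−0.053 against 0.017). A small downward shift was thus present in short genes outside the family as well, and the part that transcript length or RNA quality had in it was not tested.

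**Figure D3:**
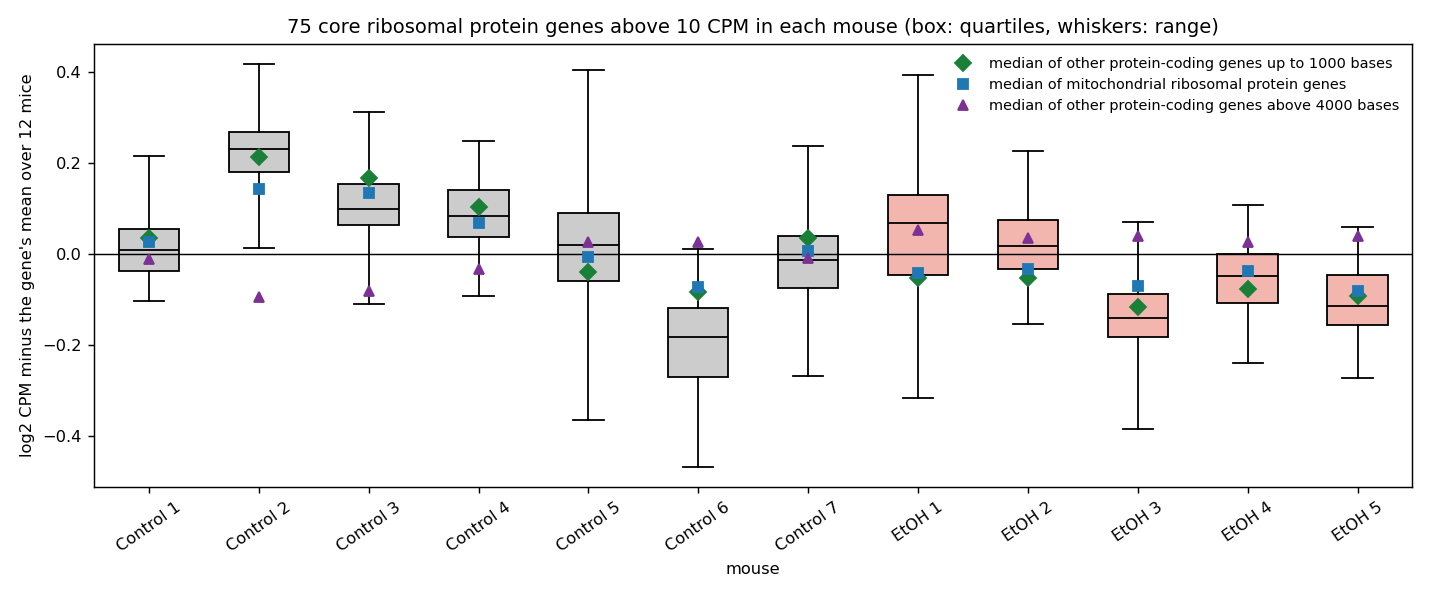
Deviation of 75 core members from their own mean over 12 mice, in log2 CPM, with quartile boxes and full range for each Control (grey) and EtOH (red) mouse; symbols give the medians of other gene sets. Control 2 is highest and Control 6 lowest, and other short genes follow the members in most mice while genes above 4000 bases have a median of the opposite sign to the members in 8 of 12 mice.

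The deepest library of each group differed from the others of its group in single members. For the core members, log2 CPM in Control 5 and EtOH 1 minus the mean of the other mice of the group, averaged over both groups, ran from −0.38 for Rps2 to 0.48 for Rpl36, genes that were picked out after their values were seen. Rps2, a constituent of the small subunit near the mRNA entry, had 162 CPM in Control 5 and 202 to 253 CPM in the other Control mice. It had 170 CPM in EtOH 1 and 192 to 213 CPM in the other EtOH mice. Rpl36, of the large subunit, showed the reverse with 58.3 CPM in Control 5 and 57.9 CPM in EtOH 1, against 33.7 to 46.0 CPM in the 10 other mice. Without these libraries the median log2 fold change of the members was −0.09 and the called member was unchanged.

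Rps4l was the member that rose. It is annotated as a protein-coding gene of a single exon at chr6:148256098-148257431 (GRCm39, plus strand), in an intron of Tmtc1, which lies on the other strand, and it is an autosomal copy of the X-linked small-subunit gene Rps4x. Control mice had 7.91 to 11.7 CPM with a median of 9.44, and the EtOH mice had 18.5, 12.1, 16.6, 25.7 and 14.7 CPM. Each EtOH mouse was above each Control mouse, which 4.84% of all genes tested showed, and 0 members had the opposite separation, against 4.96% of all genes. The log2 fold change was 0.86 (SE 0.15, adjusted p = 0.00052, edgeR), 9.64 ± 1.5 CPM in Control (SD, n = 7) against 17.5 ± 5.1 CPM in EtOH (SD, n = 5). Leaving out each mouse in turn gave 0.68 to 0.96. The spread was wider in EtOH, where EtOH 4 reached 25.7 and EtOH 2 stood just above the Control range.

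Its source gene and its host gene did not rise with it. Rps4x, at chrX:101228542-101233014, had 127 to 172 CPM in Control with a median of 152, and 134, 148, 133, 147 and 142 CPM in EtOH. The groups overlapped and the log2 fold change was −0.11 (SE 0.07, adjusted p = 0.261, edgeR). Counts of Rps4l amounted to 6.41% ± 1.3 (SD) of those of Rps4x in Control and to 12.4% ± 3.5 (SD) in EtOH, with EtOH 2 (8.19%) below Control 5 (9.08%). Tmtc1 went the other way, with a log2 fold change of −0.23 (SE 0.07, adjusted p = 0.0253, edgeR). Of the 50-base windows of the Rps4l exon, 10.9% occurred elsewhere in the genome, against 82.7% for Rps4x, which has many processed copies. The striatal markers and the summed level of the hippocampal markers moved with the group as given above. Choroid plexus markers summed to 126, 23.0, 1011, 286 and 12.9 CPM in EtOH 1 to 5. The part of these markers in the Rps4l difference was not tested.

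**Figure D4:**
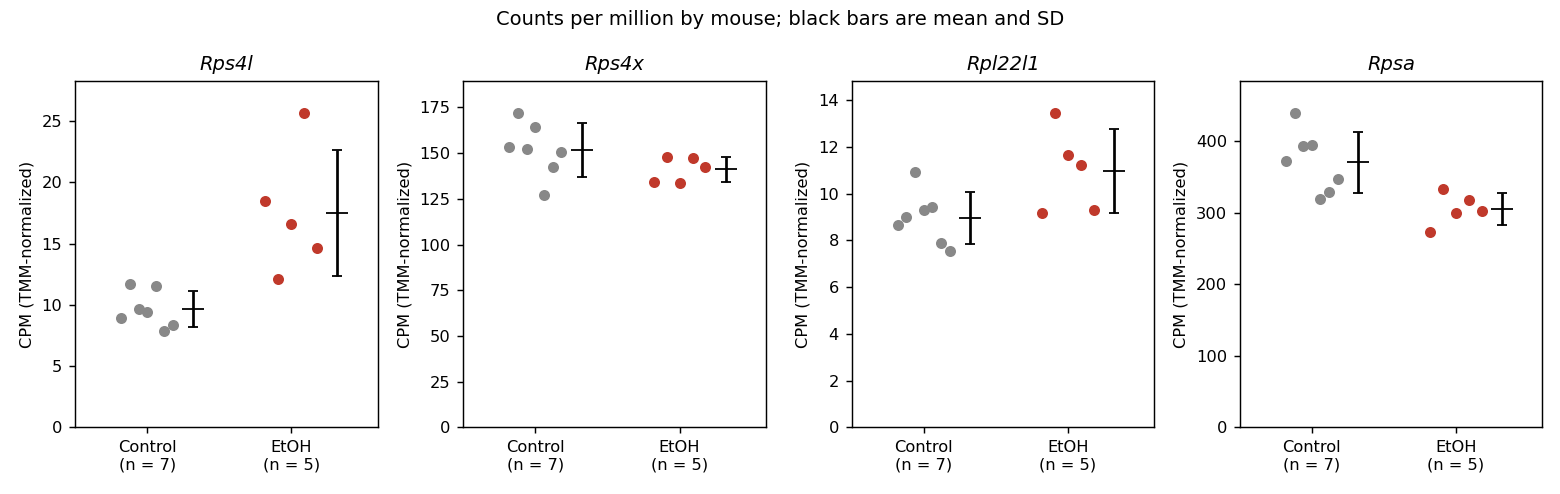
CPM of Rps4l, Rps4x, Rpl22l1 and Rpsa in each mouse, with the mean and SD of each group; axes start at 0. All EtOH mice exceed all Control mice for Rps4l, while the groups overlap in the other panels.

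Rpsa was the member that fell. RPSA sits on the small subunit at the mRNA exit side and also occurs at the cell surface as a receptor for laminin. Control mice had 318 to 440 CPM with a median of 373, and the EtOH mice had 273, 333, 300, 317 and 302 CPM. All but EtOH 2 lay below the lowest Control, Control 5. The log2 fold change was −0.28 (SE 0.08, adjusted p = 0.0124, edgeR), with −0.32 to −0.24 when each mouse was left out in turn. Its start window held no pyrimidine run of 7 letters. Microglial markers, all 9 with negative values (median −0.32), summed to 370 to 426 CPM in Control and 316 to 339 CPM in EtOH. Oligodendrocyte markers, all 10 with negative values (median −0.42), summed to 4644 to 6154 CPM in Control and 3109 to 5545 CPM in EtOH. Whether these cells had a part in the Rpsa difference was not tested.

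In the P stalk, all 3 genes had lower means in EtOH without passing the test. Rplp0, the scaffold of the stalk and a common reference gene in quantitative PCR, had 148 to 185 CPM in Control with a median of 167, and 143, 153, 143, 157 and 147 CPM in EtOH. Its log2 fold change was −0.16 (SE 0.06, adjusted p = 0.0545, edgeR). Rplp1 had 281 to 385 CPM in Control with a median of 325, and 310, 282, 277, 305 and 282 CPM in EtOH, a log2 fold change of −0.20 (SE 0.07, adjusted p = 0.0554, edgeR). For Rplp2 the change was −0.15 (SE 0.10, adjusted p = 0.265, edgeR). DESeq2 placed Rplp0 (adjusted p = 0.0385) and Rplp1 (0.04) past the threshold, and so did leaving out Control 5 or Control 6 for both, Control 1 for Rplp0 and Control 7 for Rplp1 (lowest adjusted p 0.0281 and 0.0165, edgeR).

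The members tied to p53 and mTOR signalling did not pass the test with all mice. Rps6 had 88.4 to 119 CPM in Control with a median of 100, and 94.5, 95.2, 94.9, 91.3 and 86.3 CPM in EtOH. The EtOH mice lay in the lower part of the Control range or, for EtOH 5, below it, with a log2 fold change of −0.14 (SE 0.06, adjusted p = 0.114, edgeR). It passed without Control 6 (adjusted p = 0.0421, edgeR). These are mRNA levels and say nothing of phosphorylation. Rpl5 and Rpl11, the partners of MDM2, had log2 fold changes of −0.10 (SE 0.07, adjusted p = 0.328) and −0.04 (SE 0.08, adjusted p = 0.773, edgeR). For Rpl26, which binds p53 mRNA, the value was −0.06 (SE 0.08, adjusted p = 0.605). Rps27a was at −0.15 (SE 0.08, adjusted p = 0.176).

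Among the pairs of paralogs, Rpl22l1 had the largest log2 fold change after Rps4l. Control mice had 7.57 to 10.9 CPM with a median of 9.01, and the EtOH mice had 9.16, 13.5, 11.7, 11.2 and 9.3 CPM. EtOH 2, 3 and 4 were above all Control mice, whereas EtOH 1 and EtOH 5 were inside their range. The log2 fold change of 0.29 (SE 0.11) missed the threshold (adjusted p = 0.0667, edgeR), passed it with DESeq2 (0.0484) and spanned an adjusted p of 0.035 to 0.205 when each mouse was left out in turn. Rpl22, which represses Rpl22l1, had 55.4 to 68.8 CPM in Control and 55.2 to 69.4 CPM in EtOH, at −0.05 (SE 0.06, adjusted p = 0.608). Counts of Rpl22l1 were 14.2% ± 1.8 (SD, n = 7) of those of Rpl22 in Control and 17.8% ± 1.9 (SD, n = 5) in EtOH. Of the Rpl22l1 windows, 60.5% also occur elsewhere in the genome, so reads of its copies and its own may not have been separated.

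None of the other paralogs or their partners passed the test. Rps27l, a target of p53, had 3.44 to 4.88 CPM in Control and 3.5 to 4.2 CPM in EtOH (log2 fold change −0.06, SE 0.12), and Rps27 was at −0.04 (SE 0.07). Rpl7l1, which takes part in assembly of the large subunit, had 26.02 to 32.6 and 27.3 to 31.3 CPM (0.03, SE 0.06), and Rpl7 was at −0.07 (SE 0.07). Rpl3l was detected at 5 to 21 counts per mouse, at most 0.172% of the counts of Rpl3, and Rpl3 had 298 ± 18 CPM in Control (SD, n = 7) and 297 ± 18 in EtOH (SD, n = 5). The X-linked partners Rpl10, Rpl36a and Rpl39 had log2 fold changes of −0.12, −0.04 and −0.05.

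The pseudogene copies with counts rested on few reads. Rps3a3, inside Pde4d on chromosome 13, had 4 to 14 counts in Control and 14, 26, 2, 22 and 24 counts in EtOH. Its log2 fold change of 1.09 (SE 0.47) was the largest in the family but did not pass (adjusted p = 0.101, edgeR), though it did without EtOH 3 (adjusted p = 0.0199). Rps3a2 had 6 to 28 counts in Control and 24, 24, 6, 22 and 30 in EtOH, at 0.62 (SE 0.41, adjusted p = 0.293). EtOH 2, 4 and 5 were the highest mice for Rps3a3, whereas for Rps3a2 Control 3, with 28 counts, was above EtOH 2 and EtOH 4 in CPM. Without EtOH 2, 4 and 5 the log2 fold changes were −0.24 and −0.07, so that both directions turned. That run keeps only EtOH 1 and EtOH 3 in the group, with 14 and 2 counts of Rps3a3 and 24 and 6 of Rps3a2. As it leaves out the highest mice for Rps3a3, it could only lower the value of that gene. Rps3a1, the parent gene, was at −0.01 (SE 0.07) with 74.1% of its windows repeated elsewhere.

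Genes that act beside the family were read from 7 lists and from Fau and Rack1. Fau, a small-subunit protein made as a fusion with a ubiquitin-like protein, and Rack1, a scaffold on the small subunit, had log2 fold changes of −0.08 (SE 0.07, adjusted p = 0.461, edgeR) and −0.04 (SE 0.05, adjusted p = 0.597), and neither passed. Of 77 tested mitochondrial ribosomal protein genes, 0 were called, against 8.29% of all genes. Without a fold minimum 8 were lower, 10.4% against 11.6% of all genes, Mrpl52 with the largest fall (−0.32, SE 0.09, adjusted p = 0.0208, edgeR). The median of all 77, −0.09, resembled that of the cytosolic family. Among 17 translation factors with TOP mRNAs, Tpt1 (−0.23, SE 0.08, adjusted p = 0.0483, edgeR) and Eif3f (−0.19, SE 0.06, adjusted p = 0.0233, edgeR) were lower without a fold minimum. They made up 11.8% of the list, against 11.6% of all genes, and the median of the list was −0.06.

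Genes that build ribosomes showed no shared direction. Of 40 biogenesis factors, 4 were higher and 1 lower without a fold minimum (12.5% against 23.7% of all genes), with a median of 0.01. The higher ones included Nop56 (0.24, SE 0.05, adjusted p = 0.00493), whose EtOH mice were all above the Control mice, as in 4.84% of all genes, and its partner Nop58 (0.22, SE 0.07, adjusted p = 0.0224), both of the particles that methylate ribosomal RNA. In the RNA polymerase I list 1 of 14 was higher and 1 lower without a fold minimum, 14.3% against 23.7% of all genes. In the 8 tested snoRNA host genes 0 passed, beside the same 23.7% of all genes.

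In the list of the mTORC1 pathway 1 of 24 was called (4.17%, against 8.29% of all genes), Rragd, a Rag GTPase that carries amino acid signals to mTORC1. Control mice had 145 to 161 CPM with a median of 157, and the EtOH mice had 106, 103, 95.5, 99.8 and 95.4 CPM. No EtOH mouse reached the Control range, a separation that 4.96% of all genes showed. The log2 fold change was −0.62 (SE 0.05, adjusted p = 1.16e-07, edgeR). Without a fold minimum 5 of the 24 passed, 20.8% against 23.7% of all genes. Besides Rragd, Mtor itself was higher (0.23, SE 0.08, adjusted p = 0.0449) and Deptor, an inhibitor of mTOR, lower (−0.32, SE 0.07, adjusted p = 0.00357). Rheb, the activator of mTORC1, was lower (−0.25, SE 0.08, adjusted p = 0.0262), and Tsc2, an inhibitor of Rheb, was higher (0.17, SE 0.06, adjusted p = 0.0372).

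In the ribosome quality control list 1 of 15 was called (6.67%, against 8.29% of all genes), Eif2ak4, which encodes the kinase GCN2 that senses stalled ribosomes and uncharged tRNA. It had 18.8 to 26.4 CPM in Control with a median of 21.97, and 32.03, 30.2, 34.7, 32.6 and 31.6 CPM in EtOH. The groups were apart, as in 4.84% of all genes with EtOH higher, and the log2 fold change was 0.52 (SE 0.08, adjusted p = 0.000123, edgeR). Without a fold minimum 3 genes of this list were higher and 1 lower, 26.7% against 23.7% of all genes. The value of Eif2ak4 lies close to the minimum of 0.5, and leaving out Control 2, Control 4 or EtOH 3 took it below the minimum (lowest 0.48). Over all 7 lists, with 77, 17, 40, 14, 8, 24 and 15 tested genes in the order given, 1 gene was called higher and 1 lower, Eif2ak4 and Rragd. Of all genes 4.2% were called higher and 4.09% lower.

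**Figure D5:**
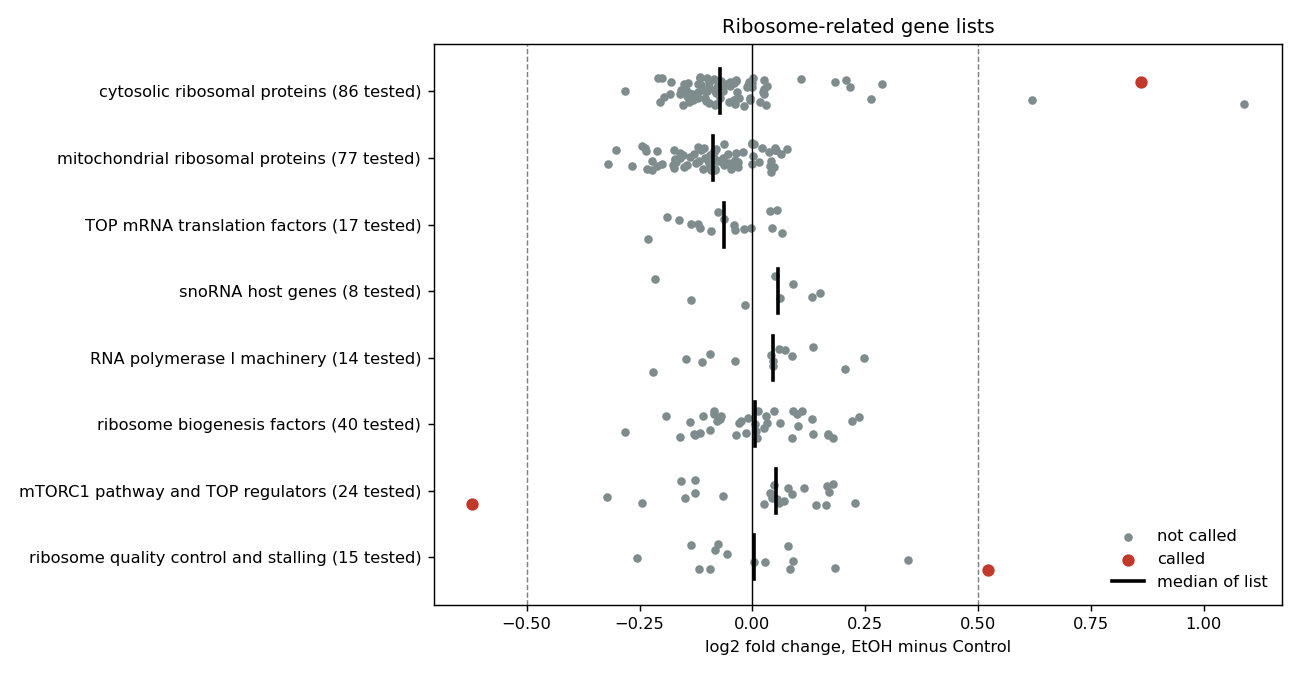
Log2 fold change, EtOH minus Control, of the tested genes of the ribosomal protein family and of 7 related lists; black bars are medians, red points are genes called and dashed lines the fold minimum of 0.5. Rps4l, Eif2ak4 and Rragd are the called genes, and the cytosolic and mitochondrial ribosomal proteins share a median just below 0.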

How the data were processed

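Total RNA of frozen cortex of 7 Control and 5 EtOH mice was sequenced by BGI. The authors aligned the reads to GRCm39 (Gencode Release 28) with STAR, counted them with featureCounts and deposited a table of expected counts (estimated counts, mostly whole) per gene symbol, without normalization; FastQC 0.11.9 and DESeq2 are also named in the submitters' processing notes. Strand and multi-mapping settings are not given in the sources used here. Members and gene lists were chosen with earlier results of these data known.

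Counts were rounded to whole numbers; 61 symbols held values that were not whole and 0 of them were members. All 12 columns were matched to mice by name. Genes were kept with filterByExpr (16059 genes) and compared with edgeR's quasi-likelihood test after TMM normalization, with Benjamini-Hochberg adjustment over all genes (R 4.3.3, edgeR 4.0.16), on a fit tested on simulated data; the standard error is the log2 fold change divided by the square root of F. CPM values use TMM library sizes. Exceptions are the summed pseudogene and receptor rows and the limit of 3 counts, which use total counts without TMM scaling. Members called, the 5 largest rises and falls past the test, the 3 highest and 3 lowest by CPM per kb, paralogs with their partners, 9 members of known other roles, called list genes, Fau and Rack1 were named by rule; some genes are not reported here. Alternatives were DESeq2 1.42.0, limma voom (3.58.1), other scaling and filters, a replicate block and each mouse left out. Positions, transcript lengths and repeats of 50-base exon windows are from Gencode release 39 on GRCm39. Depth was 31768076 to 42183029 counts, and 3 counts correspond to at most 0.0944 CPM by total counts. Between 70.9% and 75.3% of counts from 1 to 20 were even numbers in each mouse, so a fragment may have been counted through each of its mates and low counts may hold fewer independent molecules than their number; counts halved were therefore tried after the data were seen. Same-numbered mice of the groups shared only a number (correlations of their deviations −0.108 to 0.018 over 5 pairs). No pair of libraries within a group agreed within sampling noise.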

Additional observations from a re-analysis of the deposited data

Results flagged for a closer look

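The 4 outlying values came from 62 groups of mice tested over 30 named genes and the members' share of counts, where about 1 in 20 is flagged by chance. Rpl3, of the large subunit, had 334 CPM in Control 2 against 276 to 299 CPM in the other Control mice, and Control 2 was the mouse in which most members were highest. Rpl36a had 51.4 CPM in EtOH 1, the deepest EtOH library, against 35.02 to 38.1 CPM in the other EtOH mice. Rpl7l1 had 27.3 CPM in EtOH 3 against 30.2 to 31.3 CPM in the others. Rps3a2 had 0.884 CPM in Control 3 against 0.188 to 0.449 CPM in the other Control mice, a value that rests on 28 counts.

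A signal outside the members was found in rows named as pseudogenes of ribosomal proteins, of which there were 238. Their summed level was 115 CPM in EtOH 2, 88.1 CPM in EtOH 4 and 101 CPM in EtOH 5, above the 53.1 to 72.2 CPM of the Control mice, whereas EtOH 1 (64.5 CPM) and EtOH 3 (48.8 CPM) were not above them. Olfactory and vomeronasal receptor rows, which are also nearly silent in cortex, summed to 26.9 to 33.6 CPM in EtOH and 30.9 to 38.7 CPM in Control. The cause of the higher pseudogene rows was not tested.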

How the results depend on the processing

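Rps4l remained called under each alternative run, with log2 fold changes between 0.682 and 0.959, except under a fold minimum of 1, where 0 members were called higher. Rpsa remained past the adjusted p threshold without a fold minimum in each. The count of members called lower was 0 throughout. Without a fold minimum, DESeq2 gave 2 members higher and 3 lower, and 2 were higher without the deepest library of each group. Each mouse left out in turn gave 1 to 2 members called higher (2, with Rps3a3, without EtOH 3), 1 to 2 higher and 1 to 7 lower without a fold minimum, and 0 to 1 listed pathway genes called higher. Over the same omissions the median of the members ranged from −0.103 to −0.0429 and the difference in summed share from −0.059 to −0.0146 percentage points.

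With the replicate block, a pairing that the labels and the correlations do not back, 11 members were lower without a fold minimum and the median was −0.116; the called members were the same. Of the alternatives added after the data were seen, counts halved changed no call.

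Directions turned mainly in genes with differences near 0. Rps15 was at 0.00128 with TMM factors taken without members and mitochondrial genes, 0.000262 with genes of at least 1 count in any mouse and 0.00011 with limma voom. Without EtOH 2, 4 and 5, the libraries with high pseudogene rows, the large values of Rps3a3 and Rps3a2 turned to −0.241 and −0.0662, and Rpl39 was at 0.0961, Rps27l at 0.0308, Rpl36a at 0.107, Rpl7l1 at −0.0309 and Rpl11 at 0.0654. With each mouse left out in turn, Rps15 ran from −0.0354 to 0.039, Rpl41 from −0.0537 to 0.0147, Rpl3 from −0.0268 to 0.0246, Rps27 from −0.088 to 0.00319, Rpl36a from −0.145 to 0.0031 and Rpl7l1 from −0.00183 to 0.0566. The cause of these turns was not tested.

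Some members, such as Rpl3l, Rps3a2 and Rps3a3, rest on few counts, and with 5 against 7 mice the median standard error of the members was 0.076 on the log2 scale, so differences of the size of the family's median were not detectable gene by gene. Repeated exon windows (median 33.1% of a core member's windows) leave the split of reads between members and their copies uncertain.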
